A study of Arabidopsis thaliana with 9 samples.

Results

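Starch metabolism was followed through 10 genes, 4 that build starch in the chloroplast and 6 that break it down or move its products. The builders were PGM (AT5G51820), APS1 (AT5G48300), APL1 (AT5G19220) and GBSS1 (AT1G32900), and the others were SEX1 (AT1G10760), SEX4 (AT3G52180), BAM3 (AT4G17090), ISA3 (AT4G09020), MEX1 (AT5G17520) and DPE2 (AT2G40840). They are 10 of the 34212 genes in the deposited expression table and account for 50 of its 82190 transcript isoforms. The set was selected on the TPM of the main PGM isoform, which was lower in the prp39a mutant than in wild type, so every difference of these genes between prp39a and wild type is given below as a description, without a test.

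The material was Arabidopsis thaliana seedlings harvested whole at 14 days on 1/2MS medium, with poly(A) RNA sequenced from 3 biological replicates of each of 3 genotypes. Wild type was Col-0, the smd1b mutant carried the allele smd1b-3, and the prp39a mutant carried prp39a-3, the insertion line SAIL_1249A03. Each mutation was represented by a single line, so an effect of the mutation and any other difference of that line cannot be told apart. The measure was TPM, a length-corrected relative transcript abundance, estimated for each isoform in each library and summed here per gene, with no record of read depth. SMD1B averaged 52.3 ± 1.81 TPM (SD, n = 3) across wild type, was at 0.138 TPM in 1 smd1b library and was listed at 0 in the other 2. PRP39A averaged 51.2 ± 3.46 TPM across wild type, against 5.50 ± 0.0736 TPM across prp39a (SD, n = 3). Summed leaf and chloroplast markers (5 genes) lay between 35702 and 43843 TPM in wild type, between 34797 and 41475 in smd1b and between 43467 and 51709 in prp39a. The 8 root markers summed to 120 to 218, 86.8 to 152 and 87.8 to 245 TPM in the same order. In prp39a replicate 2 the 3 seed storage markers summed to 25.6 TPM, against at most 2.86 TPM in the smd1b libraries and 0.736 TPM in wild type. In whole seedlings fewer cells of a type and less RNA per cell cannot be told apart.

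In leaves, starch accumulates by day and is consumed at night. Plastidial phosphoglucomutase (PGM) makes glucose 1-phosphate, ADP-glucose pyrophosphorylase turns it into ADP-glucose, and starch synthases add the glucose to the growing polymer; plants without PGM activity are almost free of leaf starch. At night, phosphate groups are put on and taken off the granule surface, beta-amylase and debranching enzyme release maltose, and maltose leaves the chloroplast to be used in the cytosol. The mutated genes act in pre-mRNA splicing: SMD1B encodes a protein of the Sm ring of spliceosomal particles, and PRP39A is related to a yeast protein of the U1 particle, whose RNA pairs with the 5′ splice site.

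PGM and APL1 are the members whose main isoform differed in its share between all 3 genotypes without overlap. The 5′ splice sites of both are shown to let the reader compare them with the most frequent letters. Sequences are from the RefSeq annotation of TAIR10.1, given 5′ to 3′ on the minus strand that carries both genes, with the last 3 exon bases in lower case and the first 6 intron bases in capitals. PGM lies on chr5:21063298-21068327 and APL1 on chr5:6463824-6466831. The introns shown are PGM intron 3 (chr5:21067365-21067446), intron 5 (chr5:21066943-21067131), intron 6 (chr5:21066812-21066890) and intron 15 (chr5:21065064-21065159), and APL1 intron 3 (chr5:6465988-6466066), intron 10 (chr5:6464782-6464882) and intron 11 (chr5:6464597-6464694).
most frequent letters over all annotated introns: aagGTAAGT
PGM intron 3: cagGTTCCG
PGM intron 5: aaaGTAAGT
PGM intron 6: aagGCAAGC
PGM intron 15: gagGTTCAC
APL1 intron 3: gagGTTTGA
APL1 intron 10: catGTAAAG
APL1 intron 11: aagGTAAGT

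Read in the direction of the transcript, 6 of the 21 PGM introns began with GTAAG, as did 2 of the 14 APL1 introns and 16.8% of 131098 annotated introns of the genome. PGM introns 3 and 15 matched the most frequent letters at 4 of 9 positions, a score at or below which 7.98% of annotated introns fell. PGM intron 6 begins with GC in place of GT, as do 1.11% of annotated introns. APL1 intron 11 matched at all 9 positions. The median over introns was 6 matches for PGM, for APL1 and for the whole annotation. The deposited table names isoforms without their structures, so it does not say which intron differs between the isoforms below, and no value here ties a splice site to an isoform.

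PGM was read almost wholly as 1 isoform in wild type and less so in both mutants. The main isoform, AT5G51820_P1, made up 98.7%, 98.2% and 98.8% of PGM TPM in the wild-type libraries, 95.8%, 96.9% and 96.2% in smd1b, and 85.5%, 87.5% and 87.8% in prp39a. The 3 genotypes did not overlap, with wild type highest and prp39a lowest. A second isoform, AT5G51820_ID3, stood at 1.16%, 1.80% and 0.893% in wild type, 4.19%, 3.06% and 3.01% in smd1b, and 14.5%, 12.1% and 12.2% in prp39a. The only other PGM isoform averaged at most 0.263% in any genotype. The reverse order of AT5G51820_ID3 therefore largely follows from the shares of the main isoform and is no separate observation.

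In TPM the main PGM isoform was at 85.0 ± 3.39 TPM in wild type, 96.8 ± 4.03 TPM in smd1b and 65.6 ± 5.64 TPM in prp39a (SD, n = 3). AT5G51820_ID3 was at 1.11 ± 0.412 TPM in wild type, 3.45 ± 0.842 TPM in smd1b and 9.79 ± 1.72 TPM in prp39a. In prp39a the main isoform was therefore 19.4 TPM lower and the second isoform 8.68 TPM higher than in wild type. In smd1b, by contrast, both isoforms had higher mean TPM than in wild type, and the share of the main isoform was lower although its mean TPM was higher.

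The smd1b contrast did not enter the choice of the set, although it uses the same 3 wild-type libraries. Isoforms were tested as the log2 ratio of an isoform to the rest of its gene, where the isoform held between 0.05 and 0.95 of its gene's TPM, a range that 8 isoforms of 5 members met; a similar isoform can take reads from another in such estimates, so values of single isoforms are uncertain. The 2 PGM isoforms met the range only through prp39a, whose values and those of wild type selected the set, so their smd1b shares are left as the description above, with no test. Of the 6 isoforms of the other 4 genes, 1 fell between smd1b and wild type and none rose. The isoform that fell was AT5G19220.1 of APL1. The background was 2.17% of all tested isoforms called and 1.09% called downward.

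APL1, a large regulatory subunit of ADP-glucose pyrophosphorylase, also had a shift in the share of its main isoform. Its main isoform, AT5G19220.1, held 96.3%, 96.9% and 95.4% of the gene in wild type, 90.9%, 91.1% and 91.3% in smd1b, and 81.9%, 82.4% and 84.8% in prp39a. The genotypes were again separate in the order seen for PGM. Between smd1b and wild type its ratio fell by 1.28 on the log2 scale (SE 0.18, limma adjusted p = 0.0139), a call lost without wild-type replicate 1 (0.0530) or smd1b replicate 1 (0.0570), with adjusted p from 0.00724 to 0.0570 over the alternatives. Without either of these libraries none of the 6 isoforms was called. The mutants could be compared directly here, and the ratio was 1.04 lower in prp39a than in smd1b (SE 0.18, adjusted p = 0.00701), a call that held without each library in turn; it was the one called of 6 member isoforms tested outside PGM, with 13.5% of all tested isoforms called in that comparison and 6.63% called downward.

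3 minor APL1 isoforms, each under the tested range, differed from one another in their pattern. AT5G19220_ID12 was near 0 in 2 wild-type libraries and at 1.08% in the third, at 3.33%, 3.21% and 3.03% in smd1b, and at 9.14%, 6.53% and 5.61% in prp39a. AT5G19220_ID9 was at 2.69%, 2.27% and 3.53% in wild type, 5.81%, 5.69% and 5.61% in smd1b, and 5.59%, 5.22% and 4.98% in prp39a, so it was higher in both mutants to a like degree. AT5G19220_ID10 was at 3.28%, 5.64% and 4.52% in prp39a and at most 0.909% in any library of the other genotypes. ID12 and ID9 were thus above wild type in both mutants, whereas ID10 was above it in prp39a alone among these 3 groups; none of the 3 was tested. The level of the main isoform differed little between genotypes, and AT5G19220.1 stood at 193 ± 15.1 TPM in wild type, 185 ± 4.12 TPM in smd1b and 189 ± 23.8 TPM in prp39a (SD, n = 3).

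**Figure D1:**
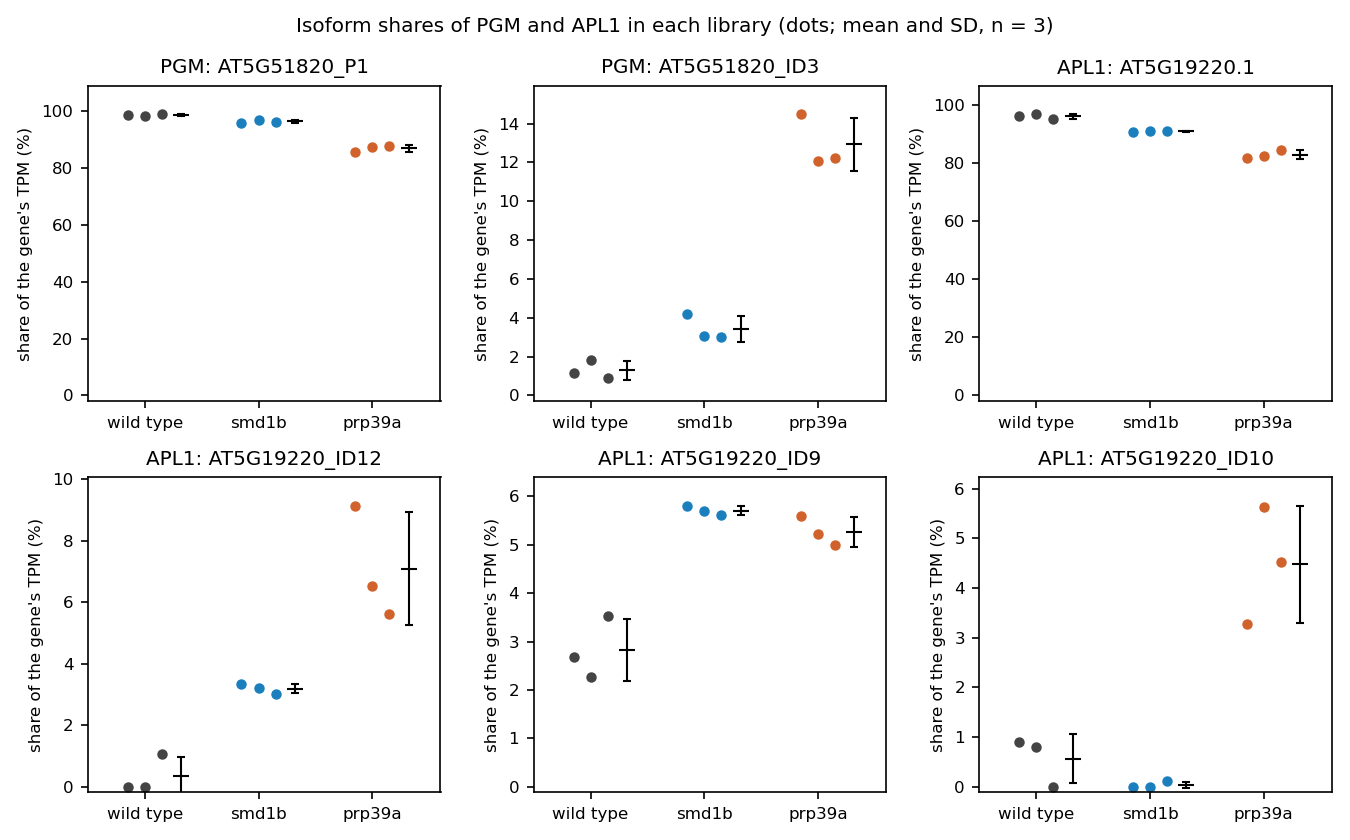
Share of the gene's TPM (%, vertical axes) held by isoforms of PGM and APL1 in each library, with points for libraries and bars for the mean and SD of 3. The main isoforms AT5G51820_P1 and AT5G19220.1 step down from wild type through smd1b to prp39a without overlap, while AT5G51820_ID3 and AT5G19220_ID12 step up; AT5G19220_ID10 is above 3% only in the 3 prp39a libraries.

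For the other members the proportions gave no such separation in the tests run. In SEX1, SEX4 and ISA3 the tested isoforms had adjusted p of 0.782 to 0.978 between smd1b and wild type. AT3G52180_P1, as an example, held 88.5% of SEX4 in wild type, 87.6% in smd1b and 88.0% in prp39a on average. Some untested minor isoforms of SEX4 did separate prp39a from wild type, while others overlapped. AT3G52180_JS5 averaged 2.89% in wild type and 4.90% in prp39a, and AT3G52180_s2 1.31% and 0.0308%. APS1, GBSS1, BAM3, MEX1 and DPE2 were each read as 1 isoform with over 95% of the gene's TPM, so no share was tested. Between prp39a and wild type the 3 isoforms without overlap among the 8 were the PGM pair and AT5G19220.1, beside 29.7% of all tested isoforms without overlap, a count that the choice of the set partly fixes.

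At the level of whole genes, the wild-type order ran from SEX1 (203 TPM), APL1 (201 TPM) and APS1 (189 TPM) through DPE2 (115 TPM), SEX4 (108 TPM) and PGM (86.2 TPM) to BAM3 (65.7 TPM), ISA3 (58.5 TPM), GBSS1 (45.5 TPM) and MEX1 (39.3 TPM). Wild-type libraries of neighbours in this order overlapped, except between APS1 and DPE2, between SEX4 and PGM, and between ISA3 and GBSS1. All 10 genes passed the filter of 1 TPM on the mean and were tested on log2(TPM + 0.5), a scale that slightly understates the change of low genes.

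In smd1b 2 of the 10 genes rose past the test and none fell, and both, SEX4 and BAM3, act in breakdown. The background was 6.63% of all tested genes called and 3.57% called upward. In 6 genes (PGM, APS1, SEX1, SEX4, BAM3 and DPE2) every smd1b library lay above every wild-type library, beside 17.0% of all tested genes. The mean of each of the 10 was above wild type, also after rescaling by size factors, but those of APL1 and MEX1 changed side without wild-type replicate 2 and smd1b replicate 2, respectively (log2 fold changes of -0.04 and -0.05). The median log2 fold change of the 10 was 0.22, beside 0.02 over all tested genes.

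**Figure D2:**
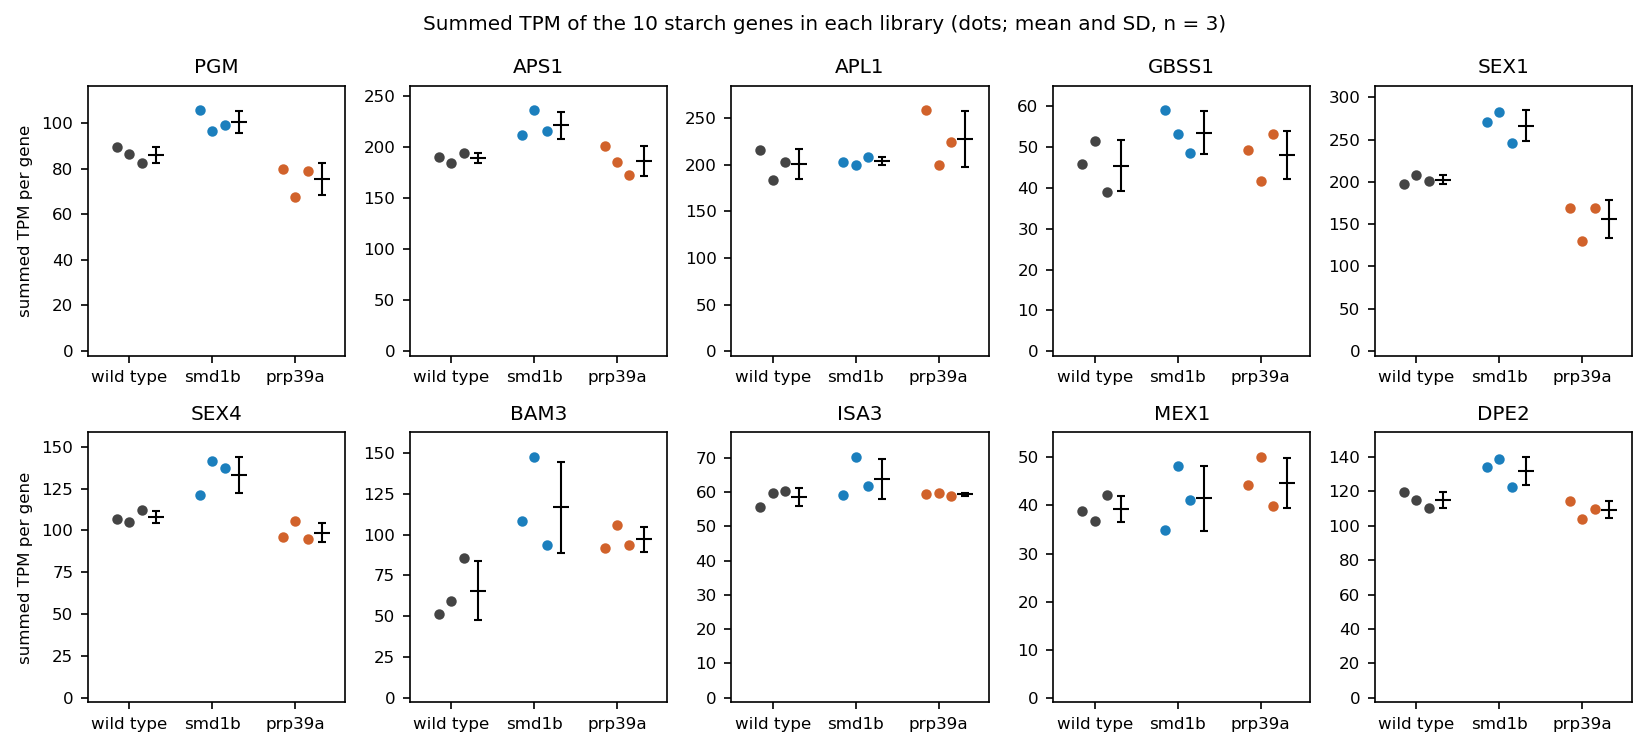
Summed TPM (vertical axes, from 0) of each of the 10 starch genes in the 9 libraries, with points for libraries and bars for the mean and SD of 3. SEX1 separates all 3 genotypes, with smd1b highest and prp39a lowest, whereas BAM3 lies above wild type in both mutants.

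Among the synthesis genes, PGM was at 89.7, 86.3 and 82.6 TPM in wild type, at 105.7, 96.4 and 99.3 TPM in smd1b, and 79.9, 67.5 and 78.9 TPM in prp39a. The smd1b libraries lay above wild type and the prp39a libraries below it, with no overlap. The log2 fold change for smd1b was 0.22 (SE 0.078, limma adjusted p = 0.129), and for prp39a it was -0.19 (SE 0.078), or 87.5% of the wild-type mean, given without a test.

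APS1, the catalytic small subunit of ADP-glucose pyrophosphorylase, was at 190.0, 184 and 194 TPM in wild type, at 211, 236 and 216 TPM in smd1b, and 201, 185 and 172 TPM in prp39a. Its smd1b libraries were above wild type while its prp39a libraries spanned it. The log2 fold change in smd1b was 0.22 (SE 0.07, adjusted p = 0.110). APL1 was at 216, 184 and 203 TPM in wild type, at 203, 199.5 and 208 TPM in smd1b, and 259, 199.4 and 225 TPM in prp39a. All 3 groups overlapped, with log2 fold changes of 0.02 in smd1b (SE 0.10, adjusted p = 0.914) and 0.17 in prp39a (SE 0.10). GBSS1, the granule-bound synthase that makes amylose, was at 45.8, 51.6 and 39.0 TPM in wild type, at 59.1, 53.2 and 48.5 TPM in smd1b, and 49.4, 41.8 and 53.3 TPM in prp39a, with overlap throughout (smd1b log2 fold change 0.24, SE 0.13, adjusted p = 0.291). Summed over the 4 synthesis genes, TPM was 522 ± 18.2 in wild type, 579 ± 6.65 in smd1b and 537 ± 47.9 in prp39a (SD, n = 3).

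SEX1, the glucan, water dikinase that phosphorylates starch at the start of breakdown, was at 198, 209 and 201 TPM in wild type, at 271, 282 and 246 TPM in smd1b, and 169, 130 and 170 TPM in prp39a. It separated all 3 genotypes, with means of 132% of wild type in smd1b and 77.1% in prp39a. The smd1b log2 fold change of 0.39 (SE 0.11) missed the threshold at an adjusted p of 0.0595 and passed it without prp39a replicate 2 (0.0170) and when only wild type and smd1b were fitted (0.0291), with a range of 0.0170 to 0.161 over the alternatives.

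SEX4, the phosphatase that removes those phosphate groups, was at 107, 105 and 112 TPM in wild type, at 121, 142 and 137 TPM in smd1b, and 95.9, 106 and 94.8 TPM in prp39a. It rose in smd1b by 0.30 on the log2 scale (SE 0.08, limma adjusted p = 0.0497), with all smd1b libraries above wild type. This call sat at the threshold and did not hold when wild-type replicate 1 (0.123), 2 (0.136) or 3 (0.0987) was left out, nor without smd1b replicate 2 (0.146) or 3 (0.165), and prp39a replicate 1 (0.0700) or 3 (0.0586), or with size factors (0.115), and the alternatives spanned 0.0315 to 0.165.

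BAM3, the main chloroplast beta-amylase of leaves at night, was at 51.6, 59.6 and 86.0 TPM in wild type, at 109, 148 and 93.7 TPM in smd1b, and 91.9, 106 and 93.5 TPM in prp39a. Both mutants lay above all wild-type libraries, at 178% and 148% of the wild-type mean. In smd1b it rose by 0.83 (SE 0.20, limma adjusted p = 0.0440), and in prp39a the log2 fold change was 0.59 (SE 0.20), without a test. The smd1b call held without wild-type replicate 3 but was lost without each other library (wild-type replicate 1, 0.130 and 2, 0.123; smd1b replicate 1, 0.0759, 2, 0.116 and 3, 0.0701; prp39a replicate 1, 0.0636, 2, 0.0524 and 3, 0.0545), as well as with size factors (0.0591), and the alternatives ran from 0.0254 to 0.130.

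ISA3, the isoamylase that trims branches from the granule, was at 55.6, 59.7 and 60.3 TPM in wild type, at 59.1, 70.3 and 61.6 TPM in smd1b, and 59.4, 59.6 and 58.8 TPM in prp39a. MEX1, the maltose exporter of the chloroplast envelope, was at 38.9, 36.8 and 42.2 TPM in wild type, at 34.9, 48.3 and 41.1 TPM in smd1b, and 44.3, 50.2 and 39.8 TPM in prp39a. Both genes overlapped between all groups, with smd1b log2 fold changes of 0.12 (SE 0.07, adjusted p = 0.372) and 0.07 (SE 0.13, adjusted p = 0.786). DPE2, the cytosolic glucanotransferase that uses the exported maltose, was at 119.5, 115 and 110 TPM in wild type, at 134, 139 and 123 TPM in smd1b, and 114, 104 and 109 TPM in prp39a. Its smd1b libraries lay above wild type (log2 fold change 0.20, SE 0.07, adjusted p = 0.118). The 6 breakdown genes summed to 589 ± 21.5 TPM in wild type, 754 ± 66.9 TPM in smd1b and 565 ± 9.47 TPM in prp39a.

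In prp39a the 10 genes did not move one way. Compared with wild type, 1 gene was higher without overlap (BAM3) and 2 were lower (PGM and SEX1), beside 28.1% of all tested genes without overlap, 9.42% higher and 18.6% lower. The place of PGM in this count is partly fixed by the choice of the set. The median log2 fold change was -0.00, with 5 genes above and 5 below wild type, beside -0.07 over all tested genes. With size factors, which take out that shift, APS1 changed side (from -0.03 to 0.05), and PGM stood at -0.12 and SEX1 at -0.31.

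**Figure D3:**
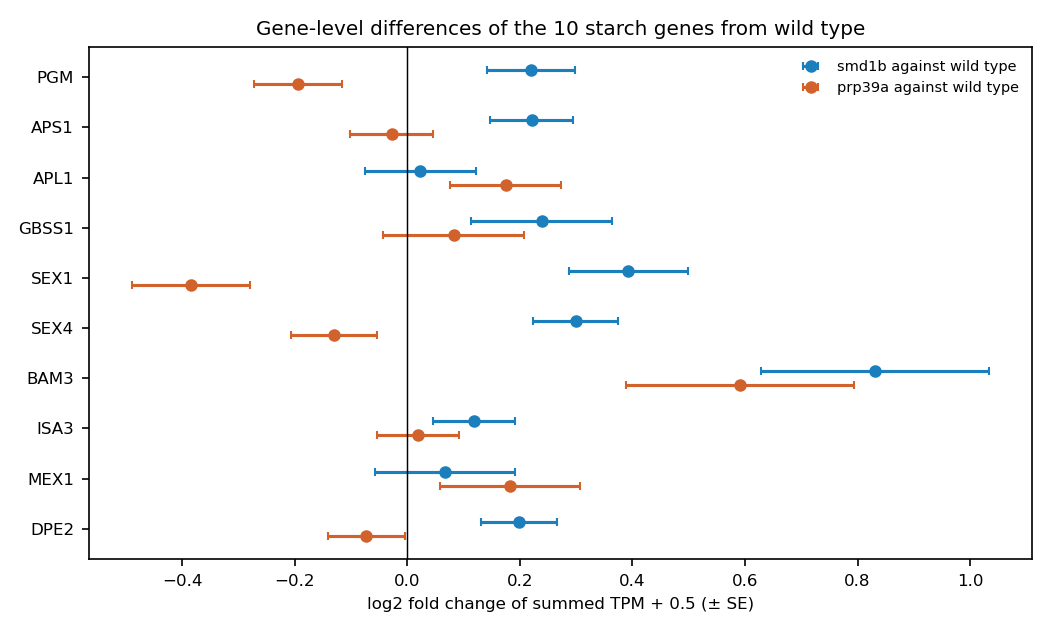
Log2 fold change of summed TPM + 0.5 against wild type (horizontal axis) for the 10 genes in smd1b and in prp39a, with bars of 1 SE from the fit of all 9 libraries; both contrasts share the 3 wild-type libraries. PGM and SEX1 lie on opposite sides of 0 in the mutants, as do APS1, SEX4 and DPE2 with prp39a values nearer 0. BAM3 is the furthest to the right in both.

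Between the mutants, 4 of the 9 members other than PGM fell from smd1b to prp39a and none rose, beside 21.1% of all tested genes called, 14.7% downward and 6.39% upward. These were SEX1 (log2 fold change -0.78, SE 0.11, adjusted p = 0.00223), SEX4 (-0.43, SE 0.08, 0.00645), DPE2 (-0.27, SE 0.07, 0.0238) and APS1 (-0.25, SE 0.07, 0.0415), with limma. The calls of SEX1 and SEX4 held in every alternative (adjusted p of at most 0.0392). That of DPE2 was lost without smd1b replicate 1 (0.0713) or 2 (0.0681), prp39a replicate 2 (0.0719) and with size factors (0.118, the top of its range from 0.0238), and that of APS1 was lost without each library but prp39a replicate 1 (wild-type replicates 1 to 3, 0.0538, 0.0565 and 0.0617; smd1b, 0.0633, 0.113 and 0.0878; prp39a replicates 2 and 3, 0.0947 and 0.103) in a range of 0.0415 to 0.267. Without smd1b replicate 1, smd1b replicate 2 or prp39a replicate 2, and with size factors, 2 members were called. BAM3 showed no call between the mutants (-0.24, SE 0.20, adjusted p = 0.424).

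The wider pathway was covered by 44 further genes for synthesis (16), granule proteins (7), breakdown (16) and transport (5), all of them tested. In smd1b 9 rose and 1 fell, beside 6.63% of all tested genes called and 3.57% called upward. The median log2 fold change was 0.10, beside 0.02 over all tested genes. By class, to be read against the same shares, 4 of 16 synthesis genes, 3 of 16 breakdown genes and 2 of 5 transport genes rose. In addition, 1 transport gene fell, and none of the 7 granule genes was called.

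The synthesis genes that rose in smd1b were the other 3 large subunits of ADP-glucose pyrophosphorylase and a starch synthase. APL2 went from 12.9 ± 0.244 to 16.9 ± 1.05 TPM (adjusted p = 0.0167), APL3 from 17.9 ± 1.00 to 27.0 ± 2.66 TPM (0.0153), APL4 from 8.77 ± 0.338 to 12.6 ± 0.300 TPM (0.0139) and SS2 from 14.0 ± 1.57 to 19.0 ± 1.14 TPM (0.0350; SD, n = 3). APL1, at 201 TPM in wild type far the most abundant of the 4 large subunits, was the one whose gene-level test was not passed.

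Among breakdown and transport genes, PHS2, the cytosolic glucan phosphorylase, rose in smd1b from 198 ± 4.73 to 279 ± 15.1 TPM (limma adjusted p = 0.00601). BAM2, a minor chloroplast beta-amylase, rose from 16.0 ± 1.18 to 23.9 ± 1.42 TPM (0.00620), and NTT1, a plastid ATP/ADP carrier, from 50.8 ± 0.628 to 67.9 ± 2.46 TPM (0.00563). These 3 calls held without each library in turn. Named after their values were seen, the 3 remaining calls were rises of GPT2, a glucose 6-phosphate carrier (8.57 ± 2.82 to 17.5 ± 2.84 TPM, 0.0364), and of BAM6 (1.60 ± 0.294 to 3.25 ± 0.309 TPM, 0.0432), and a fall of GLT1, the plastid glucose exporter (149.9 ± 7.02 to 125 ± 3.99 TPM, 0.0367).

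The count of 10 called pathway genes in smd1b was smaller without any 1 of the wild-type or smd1b libraries. With the wild-type replicates 1, 2 and 3 left out in turn it was 4, 6 and 5, and for the smd1b replicates 6, 4 and 3. Over all genes, in the same order, 1365 calls became 542, 610 and 517, and 938, 546 and 376. APL4 was lost without wild-type replicate 2 (0.0503) or smd1b replicate 3 (0.0644), APL3 without wild-type replicate 1 (0.0565) or smd1b replicate 2 (0.0515) or 3 (0.0570), and APL2 without wild-type replicate 1 (0.0555) or 3 (0.0602) or smd1b replicate 2 (0.0622) or 3 (0.0768), these highest values closing ranges that began at 0.00672, 0.0103 and 0.0167. SS2 was lost without each wild-type (0.0529, 0.0772, 0.101) and smd1b replicate (0.0868, 0.0828, 0.0963) and prp39a replicate 1 (0.0529), in a range of 0.0226 to 0.101. BAM6 was lost without each wild-type (0.0861, 0.0936, 0.133) and smd1b replicate (0.0791, 0.125, 0.118), in a range of 0.0167 to 0.133, and so was GLT1 (0.0634, 0.0861, 0.128; 0.0907, 0.0873, 0.10), in a range of 0.0334 to 0.128. GPT2 was lost without wild-type replicate 1 (0.114) or 3 (0.112), each smd1b replicate (0.0889, 0.0846, 0.0947) or prp39a replicate 1 (0.0523), in a range of 0.0215 to 0.114.

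In prp39a 1 of the 44 genes was called against wild type, beside 4.13% of all tested genes (2.39% downward), with a median log2 fold change of -0.11. MFP1, a thylakoid-associated protein with a part in starch granule initiation, fell by 0.49 on the log2 scale (SE 0.10, limma adjusted p = 0.0286), with means of 70.2 ± 7.95 TPM in the control and 50.0 ± 5.39 TPM in the mutant, with all 3 prp39a libraries below wild type. It did not pass when wild-type replicate 1 (0.0754), 2 (0.0689) or 3 (0.0591) was left out, nor without smd1b replicate 3 (0.0535) or prp39a replicate 1 (0.0896) or 2 (0.0762), the range being 0.0284 to 0.0896; without prp39a replicate 3 there were 2 called genes. Between the mutants 18 of the 44 fell from smd1b to prp39a and 2 rose, beside 21.1% of all tested genes called, 14.7% downward and 6.39% upward. The count of 20 was 11, 13 and 13 without smd1b replicates 1 to 3 and 12 without prp39a replicate 1 or 2. With size factors the split was 12 lower and 2 higher, while over all genes it went from 3020 lower and 1316 higher to 2063 lower and 2144 higher. The falls included NTT1 (-0.52, SE 0.06, adjusted p = 0.000912), PHS2 (-0.60, SE 0.07, 0.00111), APL4 (-0.72, SE 0.09, 0.00124), MFP1 (-0.72, SE 0.10, 0.00215) and ISA2, an isoamylase of amylopectin synthesis (-0.78, SE 0.12, 0.00378).

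**Figure D4:**
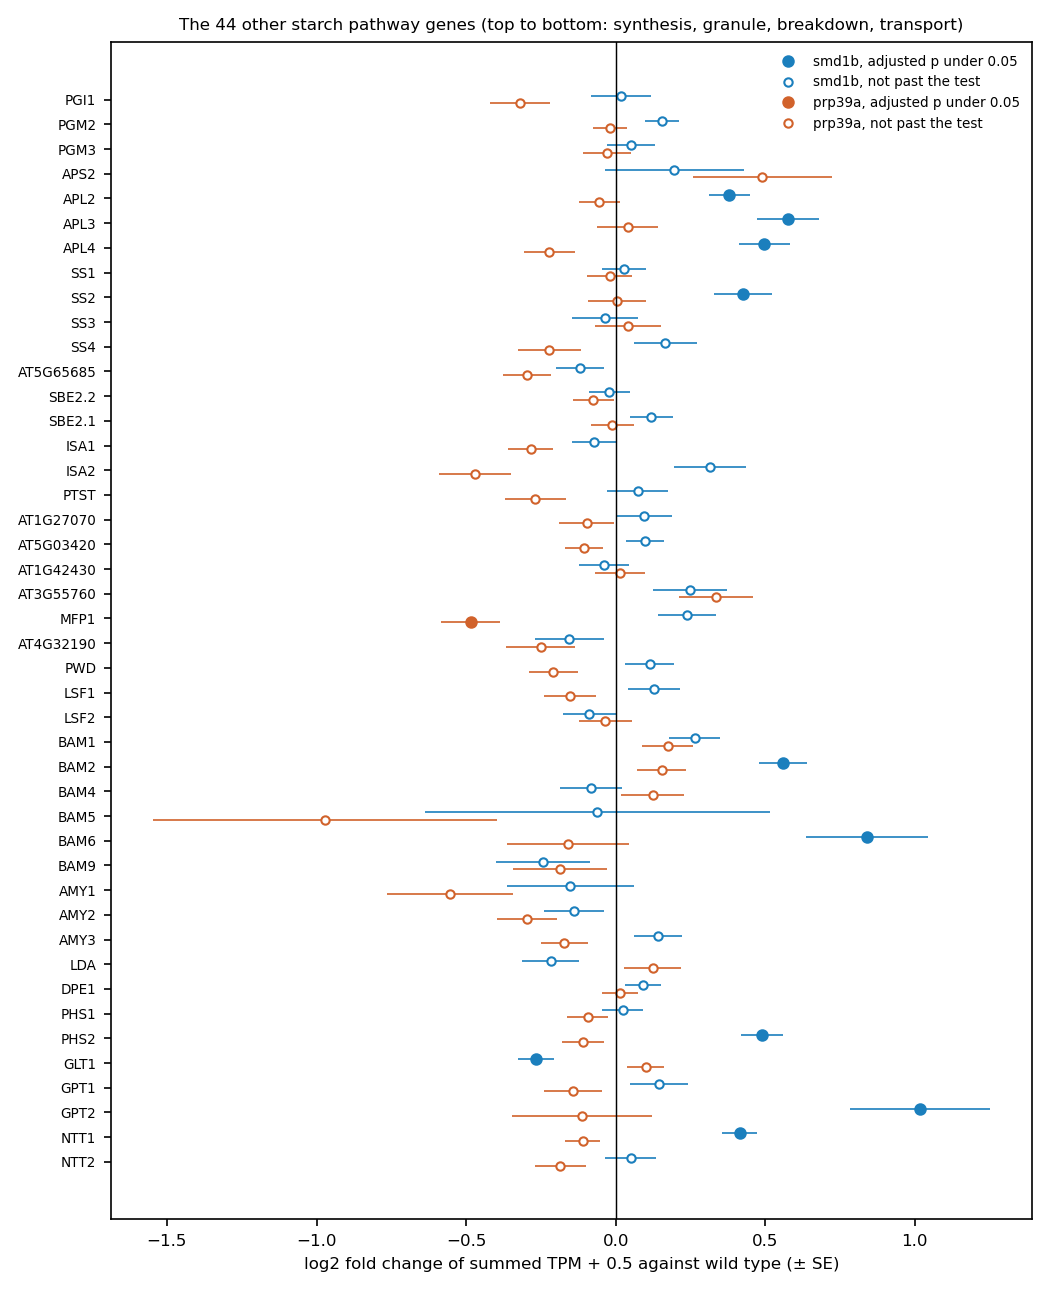
Log2 fold change of summed TPM + 0.5 against wild type (horizontal axis) for 44 other genes of starch metabolism, with bars of 1 SE; filled points had a limma adjusted p under 0.05 over all genes. Filled points of smd1b lie to the right of 0 except GLT1, and the single filled point of prp39a is MFP1 on the left.

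Isoform proportions of the wider pathway were tested for 53 isoforms in 22 of the 44 genes. In prp39a 5 rose and 3 fell against wild type, beside 10.6% of all tested isoforms called (5.49% upward and 5.12% downward), and they belonged to 3 genes. The rises include AT5G65685_ID19, AT5G04360_JS18 and AT5G39790_P2, whose high prp39a shares helped them into the tested range. The count of rises is therefore partly fixed by that range and is given as a description. AT5G65685, annotated as a UDP-glycosyltransferase superfamily protein, had its isoform AT5G65685.1 at 50.7%, 53.5% and 40.9% of the gene in wild type, 20.5%, 31.9% and 29.9% in smd1b, and 3.02% in prp39a replicate 2 and near 0 in the other prp39a libraries (log2 ratio -5.04, SE 0.41, adjusted p = 0.000222). Its isoform AT5G65685_ID3 was at 2.92 ± 1.80% in wild type, 13.5 ± 3.20% in smd1b and 36.4 ± 1.20% in prp39a (adjusted p = 0.000281 for prp39a, 0.0228 for smd1b). AT5G65685_ID19 went from 1.31 ± 1.07% to 11.8 ± 3.47% and AT5G65685_ID26 from 12.2 ± 0.860% to 20.1 ± 0.831% (adjusted p = 0.0316 for AT5G65685_ID26) in prp39a. The steps from wild type through smd1b to prp39a in AT5G65685.1 and AT5G65685_ID3 ran in the same order as in PGM and APL1.

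In LDA, the limit dextrinase that debranches starch, AT5G04360_P2 fell in prp39a from 24.3 ± 3.57% to 1.89 ± 3.27% of the gene (limma adjusted p = 0.00497). AT5G04360_JS18 went from 0.985 ± 0.855% to 14.3 ± 2.43%, given without a test. In PTST, a chloroplast starch-binding protein, AT5G39790_P3 fell from 79.8 ± 1.1% to 60.8 ± 6.0% (0.00864). AT5G39790_P2 went from 6.42 ± 1.88% to 22.1 ± 2.2%, given without a test. Unlike in PGM, the P2 isoform of PTST was lower in smd1b (1.70 ± 1.69%) than in wild type on average. AT5G39790_P2, counted among the 8 calls, was not called with a pseudocount of 0.1. Without prp39a replicate 1 the 8 calls became 5; AT5G65685_ID26 was lost without any 1 of the wild-type (0.0718, 0.0805, 0.0967) or prp39a (0.0980, 0.0762, 0.0755) libraries, in a range of 0.0211 to 0.0980.

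In smd1b 2 of the 53 isoforms rose against wild type, beside 1.08% of all tested isoforms called upward, AT5G65685_ID3 and, in APL4, AT2G21590_JC9, which went from 15.1 ± 3.02% to 49.8 ± 1.93% of its gene (adjusted p = 0.0228). The first did not pass without wild-type replicate 1 (0.0514) or 3 (0.0671) or smd1b replicate 1 (0.0801) or 3 (0.0682), in a range of 0.0128 to 0.0801. The second was lost without each wild-type (0.0762, 0.0575, 0.0755) or smd1b replicate (0.0828, 0.0650, 0.0630), in a range of 0.00750 to 0.0828.

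Clock genes, which are known to time starch breakdown, were read beside the starch genes. Beside 6.63% of all tested genes called, 2 of 14 rose in smd1b, GI (34.6 ± 1.56 to 49.0 ± 1.25 TPM, adjusted p = 0.0164) and PRR3 (22.2 ± 1.56 to 32.7 ± 2.89 TPM, 0.0124), and 1 fell, CCA1 (7.78 ± 0.835 to 3.62 ± 0.125 TPM, 0.00821). The CCA1 call held without each library, GI did not pass without wild-type replicate 2 (0.0512) or 3 (0.0607) or smd1b replicate 2 (0.0553) or 3 (0.0707), from a range starting at 0.00468, and PRR3 without smd1b replicate 3 (0.0597, from 0.0117). In prp39a, where 4.13% of all tested genes were called, none of the 14 passed. Harvest times are not given in the labels, and the part of clock phase in the smd1b values of BAM3, SEX4 and the wider pathway was not tested. Of 7 sugar starvation genes none was called in smd1b, beside 6.63% of all genes. In prp39a 1 of the 7 was called, beside 4.13% of all genes. ASN1, an asparagine synthetase induced by carbon shortage, rose by 0.72 on the log2 scale (SE 0.15, adjusted p = 0.0308), with means of 457 ± 79.7 TPM in wild type against 747 ± 62.9 TPM in the mutant. That call was lost without wild-type replicates 1 to 3 (0.0781, 0.0529, 0.0668), smd1b replicate 3 (0.0520) or prp39a replicates 1 to 3 (0.105, 0.0689, 0.0542), in a range of 0.0271 to 0.105. From smd1b to prp39a, 2 of the 14 clock genes rose and 4 fell, and 3 of the 7 starvation genes rose and 0 fell. The background was 21.1% of all tested genes called, 6.39% upward and 14.7% downward.

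The 3 genes whose summed TPM followed that of PGM most closely over the 9 libraries, among 16052 genes compared, were POLGAMMA2 (Pearson r = 0.990 on the log2 scale), AK-HSDH II (r = 0.989) and NF-YB11 (r = 0.987). POLGAMMA2 had means of 17.3 TPM in wild type, 21.6 TPM in smd1b and 14.1 TPM in prp39a. The libraries share 3 genotypes, so these values describe a common order of group means as much as variation between libraries.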

How the data were processed

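The deposited table gives TPM per transcript isoform and library. The authors made these TPM values with kallisto, per the file headers, which carry its name. Of kallisto's version and of the annotation behind the isoform names, neither is stated in the sources used here. Trimmomatic, TopHat2, featureCounts, DESeq2 and the build TAIR10 are named, without roles, per the submitters' processing notes. Of 15 value columns 9 were matched to a sample by the genotype and replicate number in the column name. The names are not identical, and col was read as wild type, smdb1 as smd1b and prp39 as prp39a. The other 6 columns were not used. TPM keeps no read depth, so no counting interval was given and no count test was run.

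Isoform TPM were summed per gene. The 20585 genes whose mean reached 1 TPM were tested on log2(TPM + 0.5), and 21990 isoforms of 8587 genes with a mean share of 0.05 to 0.95 on log2 of (isoform TPM + 0.5) over (rest of the gene + 0.5). Linear models over all 9 libraries were fitted with limma 3.58.1 in R 4.3.3 (lmFit, eBayes with trend); tests were two-sided, with Benjamini-Hochberg adjustment over all genes or isoforms of a contrast at 0.05. Ranges of adjusted p are over all alternatives run. In simulated data with 200 changed genes or isoforms, a change of 1 on the log2 scale was called for 80% to 88% of changed genes. For changed isoforms it was 5% to 10%. For a change of 2 the recovered shares were 97% to 99% of genes and 79% to 86% of isoforms. False calls made up 3.16% to 8.08% of all calls. An isoform without a call may thus still have changed by 1. The contrasts here held between 478 and 4336 calls, more than the number of changes simulated, so these rates need not hold for them. SD is the sample SD of 3 libraries.

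The members, the wider lists and the alternatives were chosen with earlier results of these data known. Named genes are all members, isoforms with at least 0.05 of a member's TPM in a group, the called genes of the wider lists (at most the 10 smallest adjusted p per contrast), their called isoforms by the same limit, the mutated genes, and the 3 genes most like PGM with a mean of at least 5 TPM. AT5G19220_ID10, with a highest group share of 4.48%, and the 2 minor SEX4 isoforms were named outside this rule. All 95 listed genes were matched to the RefSeq table of TAIR10.1. Coordinates and splice sites come from RefSeq TAIR10.1.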

Additional observations from a re-analysis of the deposited data

How the results depend on the processing

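Alternatives were pseudocounts of 0.1 and 1, no filter on low TPM, size factors, the 6 libraries of a contrast alone, a prior without trend, the replicate number as a block, and leaving out each library. Depth is unknown, groups of 3 limit every call, and similar isoforms share reads; calls close to the threshold, as for SEX4 and BAM3, changed with most settings. The cause of each change below was not tested.

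Called members in smd1b against wild type (2 genes) numbered 0 without the filter, 0 with size factors, 1 in the 6 libraries and 0 without trend. The 1 was SEX1 (adjusted p = 0.0291), while SEX4 (0.0672) and BAM3 (0.0695) were lost there. Among member isoforms outside PGM, the 1 called in smd1b (AT5G19220.1) stayed called in the 6 libraries. Pathway isoforms called in smd1b (2) numbered 4 with pseudocount 1 and 1 in the 6 libraries. Of 1365 genes and 478 isoforms called in all in smd1b, the isoforms were 106 in the 6 libraries. Clock calls in smd1b (3) were 5 in the 6 libraries, and starvation calls (0) were 1 with size factors and 2 in the 6 libraries. In prp39a against wild type, 850 genes were called in all and 413 in the 6 libraries, the pathway call (1) was lost there (0), and the starvation call (1) was lost without the filter (0) and in the 6 libraries (0). Between the mutants, called members (4) were 2 with size factors, and pathway isoforms (14) were 9 with pseudocount 0.1.

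Deviations from the group means correlated between -0.401 and 0.287 for same-numbered libraries and between -0.443 and 0.466 for other pairs, so replicate numbers gave no sign of pairing. Deviations within a group are tied to one another, and a batch under another numbering was not tested. With the replicate number as a block, calls in smd1b were 832 genes and 154 isoforms in all, 0 member genes, 1 member isoform, 6 pathway genes and 0 pathway isoforms; in prp39a they were 343 genes in all, 0 pathway genes and 0 starvation genes.

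Leaving out each library in turn gave 376 to 1422 genes in smd1b, 218 to 836 in prp39a (main 850) and 2068 to 4443 between the mutants (main 4336). Isoform calls were 98 to 427, 1387 to 2306 and 1848 to 2733 (main 2332 and 2978 for the last 2). Member genes were 0 to 2 in smd1b and 2 to 4 between the mutants, and member isoforms outside PGM 0 to 1 and 1 to 1. Pathway genes were 3 to 10, 0 to 2 and 11 to 18, and pathway isoforms 0 to 2, 5 to 8 and 7 to 12. Clock genes were 1 to 5, 0 to 1 and 3 to 6 (main 6), and starvation genes 0 to 2, 0 to 1 and 2 to 3 (main 3). Uncalled log2 fold changes crossed 0 for APL1 (-0.0395 to 0.0777) and MEX1 (-0.0478 to 0.184) in smd1b and for MEX1 between the mutants (-0.000998 to 0.230), and so did the log2 ratios of AT3G52180_P1 (-0.220 to 0.0523) and AT4G09020_s1 (-0.0924 to 0.0948) in smd1b.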
